A study of Rattus norvegicus with 23 samples.

Results

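The genes described here encode 9 proteins of the lung epithelial barrier: the claudins Cldn3, Cldn4 and Cldn7, the other tight junction genes Ocln, F11r and Tjp1, the cadherin Cdh1 and the sodium channel subunits Scnn1a and Scnn1b. They were taken by gene symbol as a list, no threshold on their values entered the rule, and all 9 were found among the 19249 genes of the deposited table. All 9 reached the mean of 10 normalized counts required and were among the 14414 genes tested. RNA was sequenced from frozen lung of male rats that breathed filtered air, a low level of eucalyptus wood smoke or a high level of it, with whole-body exposure on 4 days of the first week and, after a break of 3 days, on 3 days of the second. The smoke chambers were set to a carbon monoxide target of 10 ppm for low smoke and 20 ppm for high smoke. The table held 7 air, 8 low smoke and 7 high smoke libraries, 1 per rat, and the labels list a further high smoke sample, removed by the submitters for poor quality and not analysed here. One air sample was also dropped before libraries were made, per the labels' protocols. Strain and age are not given in the sources used here.

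Epithelial cells close the air spaces off from the tissue beneath with tight junctions and adherens junctions. In tight junctions, claudins and occludin span the membrane and the scaffold ZO-1, the product of Tjp1, ties them to actin. In adherens junctions, E-cadherin, the product of Cdh1, joins neighbouring cells and is linked to actin through catenins. Claudins differ in which ions they let pass, and Cldn3, Cldn4 and Cldn18 are the claudins best known from alveolar epithelium. The epithelial sodium channel, ENaC, is built from alpha, beta and gamma subunits encoded by Scnn1a, Scnn1b and Scnn1g, and takes up sodium from the air-space side so that water follows and the surface stays thin.

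The values are normalized counts, which the submitters obtained by dividing the counts of each library by its size factor, and are not corrected for transcript length, so levels are compared between groups and not between genes. Depth was 8484445 to 12055982 read equivalents per library, where a read equivalent is a value divided by what 1 read is worth in that library. High smoke libraries 1, 3 and 7 stood apart: on the first principal component, with 19.7% of the variance, they scored 36.5 to 51.5, against 0.30 to 8.77 for the other 4 high smoke libraries, -12.7 to -1.81 for low smoke and -21.6 to -0.29 for air. Calls of the 9 genes are given with and without them, as are many other results. These libraries were chosen after the data were seen, from the same values that are tested. Leaving out the most extreme libraries of a group can shrink a difference, and it leaves 4 high smoke libraries. Calls lost without high smoke 1, 3 and 7 are therefore description only. The trend along gene span and the search for genes of like pattern are given with all libraries only. With every library scaled to the same total, the median log2 difference of all genes between high smoke and air was -0.08, against -0.0021 as deposited, and the calls moved from 1327 higher and 1016 lower to 894 and 1797. All 10 general epithelial markers were present, with a mean of at least 1 in every group, and their summed value ran from 14947 to 19960 in air, from 16473 to 22865 in low smoke and from 19740 to 23136 in high smoke. In bulk lung, fewer cells of a type and less RNA per cell cannot be told apart.

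In high smoke against air, Cdh1 and Tjp1 fell, none of the 9 genes rose, and the other 7 did not pass the test (limma, Benjamini-Hochberg adjusted p below 0.05 over all genes tested). Of all genes tested, 9.21% were called higher and 7.05% lower in this comparison. The median log2 difference of the 9 genes was 0.02, with 5 above 0 and 4 below. In low smoke against air none of the 9 passed, with adjusted p from 0.782 to 0.978 in limma, and neither did any other gene, a share of 0.0%. At an unadjusted p under 0.05 that comparison held 923 genes, none of them among the 9, and the rank-sum test called 0 genes. In high smoke against low smoke Cdh1 and Tjp1 fell again, 7 did not pass, and 3.8% of all genes were called higher and 2.98% lower. The comparisons share libraries, so the calls against air and against low smoke are not independent. For none of the 9 genes did the high smoke values lie wholly outside those of air or of low smoke. The share of all genes tested without overlap was not computed. That count, and the separations of single genes given below, are therefore description only.

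**Figure D1:**
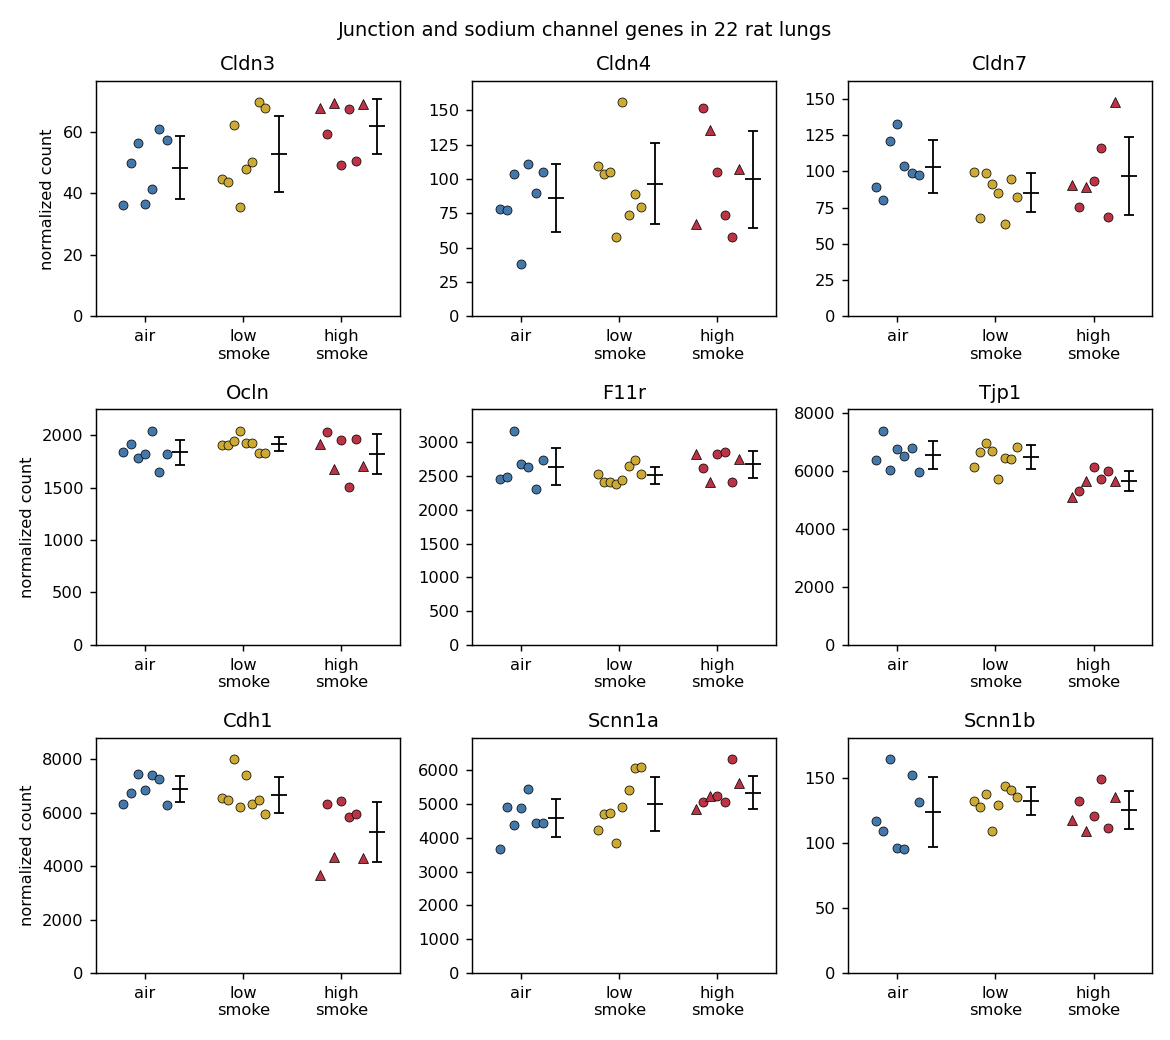
Normalized counts of the 9 genes in each library (vertical axis, from 0) by group (horizontal axis). Points are rats, triangles are high smoke 1, 3 and 7, and black bars give the mean ± SD. Cdh1 is lowest in the 3 libraries drawn as triangles, at 3691 to 4337. The ranges of the groups overlap for all 9 genes.

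Cdh1 (chromosome 19, 38768467 to 38838396, plus strand, build rn6) encodes E-cadherin, the adhesion molecule of the adherens junction. Its normalized count ran from 6293 through a median of 6826 to 7431 in air, from 5952 through 6479 to 7987 in low smoke and from 3691 through 5834 to 6425 in high smoke. Of the 7 high smoke libraries, 5 lay below every air library, and the remaining pair lay within the air range. The high smoke group itself was split: libraries 1, 3 and 7 had 3691, 4337 and 4307, and the other 4 had 5834 to 6425. The air mean was 6892 ± 481 (SD, n = 7). The low smoke mean was 6668 ± 677 (SD, n = 8), and the high smoke mean was 5268 ± 1121 (SD, n = 7). Cdh1 was 1.33-fold lower in high smoke than in air, a log2 difference of -0.41 (SE 0.11, limma adjusted p = 0.0101), and 1.29-fold lower than in low smoke, at -0.36 (SE 0.10, limma adjusted p = 0.0360). Low smoke against air did not pass the limma test, at -0.05 (95% interval -0.26 to 0.16). The difference from air was -0.17 without high smoke 1, 3 and 7 (limma adjusted p = 0.346), and with the epithelial marker mean as a covariate it was -0.44 (limma adjusted p = 0.168). The call against air held when any single library was left out, at -0.47 to -0.33, whereas the call against low smoke was lost without high smoke 1, 3 or 7 or without low smoke 1, 2, 3, 4 or 5 (limma adjusted p up to 0.101).

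Tjp1 (chromosome 1, 126146489 to 126227470, minus strand) encodes ZO-1, the scaffold under the tight junction. Its normalized count ran from 5975 through a median of 6534 to 7383 in air, from 5725 through 6541 to 6982 in low smoke and from 5117 through 5657 to 6143 in high smoke. All 7 high smoke libraries lay below the mean of air and 5 lay below every air library, while the ranges of high and low smoke overlapped. The values of high smoke 1, 3 and 7, at 5117 to 5657, overlapped those of the other 4, at 5314 to 6143, unlike the values of Cdh1. The air, low smoke and high smoke means were 6552 ± 485, 6482 ± 405 and 5658 ± 358 (SD, n = 7, 8 and 7). Tjp1 was 1.16-fold lower in high smoke than in air, a log2 difference of -0.21 (SE 0.06, limma adjusted p = 0.0203), and 1.15-fold lower than in low smoke, at -0.20 (SE 0.06, limma adjusted p = 0.0454). Low smoke and air differed by -0.01 (95% interval -0.14 to 0.11). The call against air rested on a narrow margin: it was lost without air 2 (limma adjusted p = 0.0502), without high smoke 1 (0.0524), with only the groups compared in the fit (0.0589) and without high smoke 1, 3 and 7, at -0.18 (0.258). The call against low smoke was lost without any 1 of 15 libraries, namely air 1, 4 or 6, high smoke 1, 2, 3, 5 or 7 and low smoke 1, 2, 3, 4, 6, 7 or 8 (limma adjusted p up to 0.120). With any 1 library left out, the difference stayed at -0.22 to -0.17. In the same runs the calls over all genes tested ran from 21 to 883 higher and from 8 to 768 lower.

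**Figure D2:**
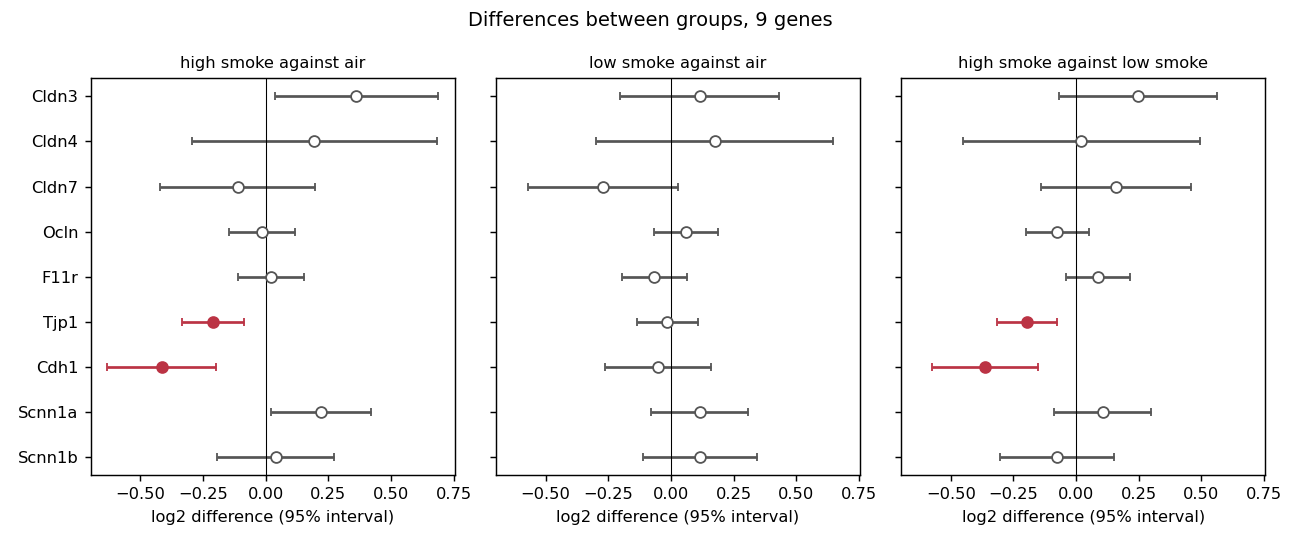
Log2 differences between groups (horizontal axis, 1 panel per comparison) with 95% intervals for the 9 genes (vertical axis), from limma. Filled red points are called at an adjusted p below 0.05: Cdh1 and Tjp1, at -0.41 and -0.21 in high smoke against air, and no gene in low smoke against air.

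Beside Cdh1, 3 other genes of the adherens junction fell. Of the 16 tested, Afdn, Ctnna1 and Ctnnd1 fell in high smoke against air, none rose and 13 did not pass the limma test, with a list median of -0.01 on the log2 scale. Among all genes tested, 7.05% were called lower in that comparison. Afdn, which encodes afadin, the link between nectins and actin, ran from 1055 to 1551 in air, 1234 to 1399 in low smoke and 686 to 1223 in high smoke, and fell by 0.52 on the log2 scale (limma adjusted p = 0.00362). Every high smoke value of Afdn lay below every low smoke value, and 5 of 7 lay below every air value. Ctnnd1, which encodes p120-catenin, the partner that holds cadherins at the cell surface, ran from 7100 to 9005 in air and from 5620 to 7573 in high smoke and fell by 0.28 (limma adjusted p = 0.0158). Ctnna1, which encodes alpha-catenin, the actin link of the cadherin complex, ran from 2789 to 4082 in air and from 2204 to 3302 in high smoke and fell by 0.33 (limma adjusted p = 0.0139). Against low smoke, Afdn and Ctnnd1 fell by 0.53 and 0.31 and Ctnna1 did not pass. Both of those calls were lost without high smoke 1, 3 or 7, and that of Ctnnd1 also without low smoke 2. Ctnnb1, which encodes beta-catenin, differed from air by -0.03 (limma adjusted p = 0.793). High smoke 1, 3 and 7 had the lowest values of Afdn, Ctnna1 and Ctnnd1 within their group, as for Cdh1, and without them none of the 16 genes was called against air, with Afdn at -0.27 (limma adjusted p = 0.177). None of 8 desmosome genes was called against air. Dsp, which encodes desmoplakin, fell by 0.28 against low smoke, a call lost when any 1 of 15 libraries was left out. With any 1 library left out, the Dsp difference was -0.31 to -0.25.

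**Figure D3:**
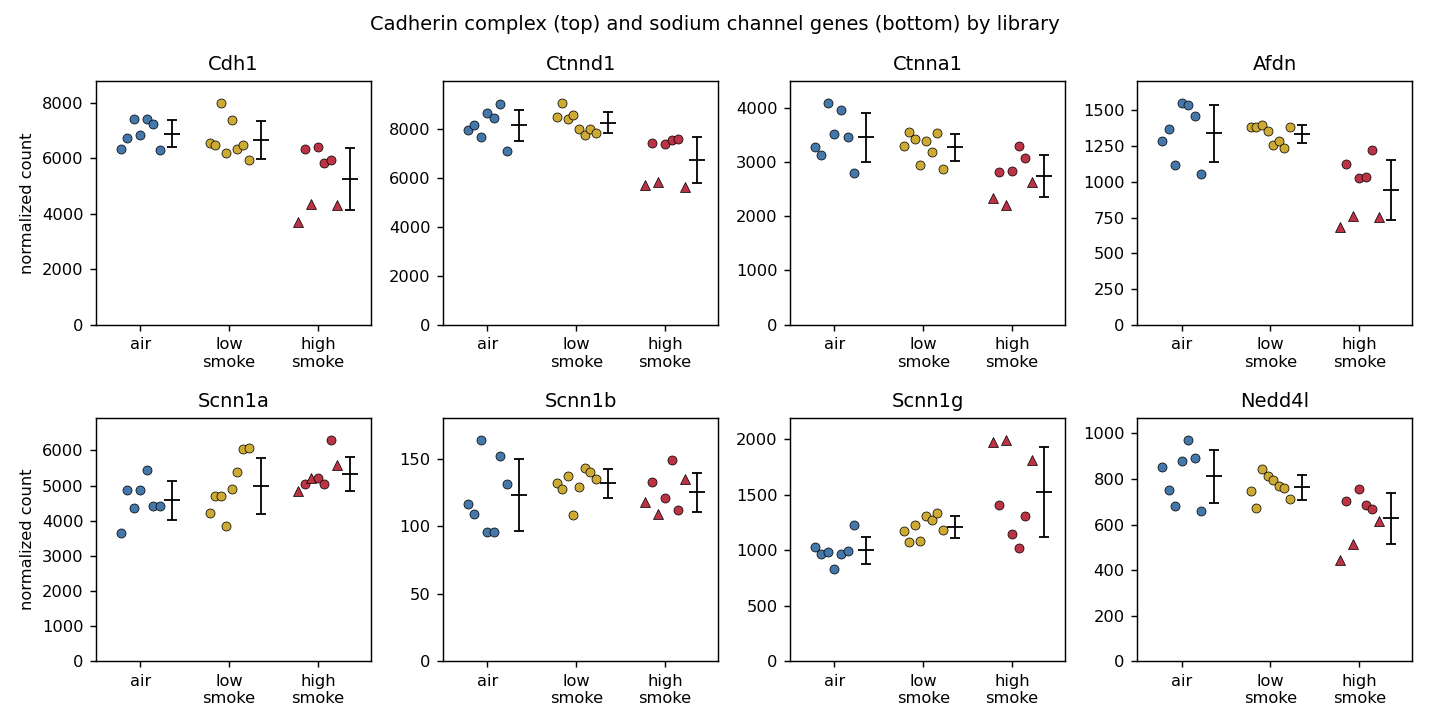
Normalized counts by library (vertical axis, from 0) and group (horizontal axis). The top row holds Cdh1 and the 3 other adherens junction genes called lower against air, Ctnnd1, Ctnna1 and Afdn. Ctnnb1, which was not called, is not shown. The bottom row holds the 3 ENaC subunits and Nedd4l. Points are rats, triangles are high smoke 1, 3 and 7, and bars give the mean ± SD. In the top row the triangles are the lowest points of their group, at 686 to 761 for Afdn, and for Scnn1g they are the highest, at 1813 to 1996.

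The 3 claudins did not pass the test in any comparison. They were counted with few reads, at a median of 52.8 read equivalents per library for Cldn3, 94.4 for Cldn4 and 90.5 for Cldn7, so that counting error alone gives a coefficient of variation of 13.8%, 10.3% and 10.5%. The values of Cldn3 and Cldn4 were not whole reads in any of the 22 libraries, while those of Cldn7 were whole in all 22, and whether reads of Cldn3 and Cldn4 were divided with other loci was not tested. Cldn3 (chromosome 12, 21831342 to 21832814, minus strand), a sealing claudin, ran from 36.3 through a median of 49.8 to 60.9 in air, from 35.6 through 49.1 to 69.6 in low smoke and from 49.1 through 67.6 to 69.6 in high smoke. All 7 high smoke values lay above the air mean of 48.4 ± 10.3 (SD), 4 of them above every air value, and the difference was 0.36 on the log2 scale (95% interval 0.04 to 0.69, limma adjusted p = 0.120). Cldn4 (chromosome 12, 24761210 to 24763006, plus strand), a claudin whose level in alveolar epithelium is known from other studies to change with injury, varied most, from 38.4 to 111 in air, 57.6 to 156 in low smoke and 57.7 to 151 in high smoke. Its coefficient of variation in air, low smoke and high smoke was 28.9%, 30.7% and 35.5%, above counting error, and its difference between high smoke and air was 0.19 with a 95% interval of -0.29 to 0.68. Neither a rise of Cldn4 of 1.61-fold nor a fall to 0.815 of the air level lies outside that interval.

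Cldn7 (chromosome 10, 56576428 to 56578627, plus strand), a claudin also found along the lateral membrane, had the order air, high smoke, low smoke. It ran from 79.99 through a median of 98.7 to 132 in air, from 63.8 through 88.0 to 99.5 in low smoke and from 68.2 through 90.3 to 147 in high smoke. The log2 difference from air was -0.27 in low smoke (95% interval -0.57 to 0.03) and -0.11 in high smoke (-0.42 to 0.20), and no neighbours in that order passed the limma test. Among 11 other claudins tested, Cldn5, the claudin of endothelial junctions that alveolar epithelium also makes, rose in high smoke, no gene fell and 10 did not pass, with a list median of 0.12 on the log2 scale. Cldn5 ran from 1162 to 1922 in air, 1271 to 1834 in low smoke and 1627 to 2524 in high smoke, a rise of 0.44 against air (limma adjusted p = 0.00985) and of 0.46 against low smoke (limma adjusted p = 0.0219). Its difference from air was 0.38 without high smoke 1, 3 and 7 (limma adjusted p = 0.188), and the call against low smoke was lost when any 1 of those libraries was left out. Cldn18, the main claudin of alveolar epithelium in mice, differed from air by 0.06 in high smoke (95% interval -0.10 to 0.22).

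The repressors SNAI1 and ZEB1, best known for acting at the Cdh1 promoter, bind E-boxes of the form CACCTG, which reads CAGGTG on the other strand, so the sequences around the annotated starts were searched for it. The RefSeq promoter table (build GRCr8, 250 bases before to 50 after each start) held 6 of the 9 genes, and Cldn4, Cdh1 and Scnn1a are named only. Of the 6, Cldn7 had 5 E-boxes, Ocln 2, and Cldn3, F11r and Scnn1b 1 each, and Tjp1 had none. Among all 33469 promoters, 18.8% held at least 1, 2.52% held at least 2 and 4 promoters, or 0.0120%, held 5 or more. The Cldn7, Ocln and Scnn1b sequences are shown, the first for its run of E-boxes, the second for its pair and the third as the promoter of an ENaC subunit, 5′ to 3′ on the gene's strand with E-boxes in capitals, from chr10:55188420-55188719 on the plus strand, chr2:33441149-33441448 on the minus strand and chr1:185861126-185861425 on the plus strand of GRCr8.
Cldn7: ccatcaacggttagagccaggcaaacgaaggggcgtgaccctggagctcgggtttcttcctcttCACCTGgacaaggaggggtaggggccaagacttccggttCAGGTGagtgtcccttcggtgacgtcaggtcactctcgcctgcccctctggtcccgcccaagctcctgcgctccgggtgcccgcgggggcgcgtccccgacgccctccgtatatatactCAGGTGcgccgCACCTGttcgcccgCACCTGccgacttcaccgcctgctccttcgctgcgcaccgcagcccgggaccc
Ocln: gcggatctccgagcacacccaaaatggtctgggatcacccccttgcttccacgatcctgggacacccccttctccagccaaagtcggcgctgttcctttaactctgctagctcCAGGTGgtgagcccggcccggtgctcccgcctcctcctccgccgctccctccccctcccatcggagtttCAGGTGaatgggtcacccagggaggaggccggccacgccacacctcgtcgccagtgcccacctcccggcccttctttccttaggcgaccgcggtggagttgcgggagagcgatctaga
Scnn1b: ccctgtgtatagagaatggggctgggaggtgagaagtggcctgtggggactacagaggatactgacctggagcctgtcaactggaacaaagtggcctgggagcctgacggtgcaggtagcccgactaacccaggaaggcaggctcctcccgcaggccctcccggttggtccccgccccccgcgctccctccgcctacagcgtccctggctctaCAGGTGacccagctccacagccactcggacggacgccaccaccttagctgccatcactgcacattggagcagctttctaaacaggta
In Cldn7 the E-boxes begin 186, 147, 28, 17 and 3 bases before the start, in Ocln 137 and 68 bases before it and in Scnn1b 37 bases before it. The Tjp1 start used in the table lies 180 kb inside the RefSeq gene of GRCr8, which is longer than the gene in the deposited rn6 coordinates, so its sequence describes an internal start. The Ocln start used lies 1.009 kb from the edge of its RefSeq gene, so its sequence may not be that of the outermost start. The palindrome AACCGGTT, a form of the site bound by grainyhead-like factors such as GRHL2, an activator of epithelial junction genes, was in none of the 6 and in 0.173% of all promoters. A match is a description of these letters and not a measured binding site.

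Among 17 regulators of epithelial junction genes tested, 2 rose, 2 fell and 13 did not pass in high smoke against air, with a list median of 0.03 on the log2 scale. With a trend along gene span removed, the same list had 0 higher and 4 lower. Zeb1, which encodes that E-box repressor and is made mostly by cells other than epithelium, ran from 900 through a median of 1035 to 1132 in air, from 917 through 984 to 1049 in low smoke and from 676 through 756 to 902 in high smoke. It fell by 0.42 against air (SE 0.07, limma adjusted p = 0.000387), with 6 of 7 high smoke values below every air value, and by 0.35 against low smoke (limma adjusted p = 0.0140), with all 7 below every low smoke value. Without high smoke 1, 3 and 7 Zeb1 was still called against air, at -0.39 (limma adjusted p = 0.0230). Snai1, the other E-box repressor, ran from 103 to 147 in air and from 137 to 321 in high smoke, a rise of 0.52 (limma adjusted p = 0.0368) that was lost without air 1, 2, 4 or 7 or high smoke 1, 2 or 3. Ehf, an epithelial transcription factor of the ETS family, fell by 0.37 (limma adjusted p = 0.0336) and Esrp2, an epithelial splicing factor, rose by 0.18 (limma adjusted p = 0.0273). The Ehf call was lost without air 1, 2, 4 or 6 or high smoke 1, 3 or 7, and the Esrp2 call without air 4 or 6 or high smoke 7. Grhl2 differed from air by 0.03 (95% interval -0.11 to 0.17). No regulator other than Zeb1 was called without high smoke 1, 3 and 7. Against low smoke Ehf fell by 0.37, a call lost when any 1 of 15 libraries was left out. With any 1 library left out, the Ehf difference was -0.43 to -0.27. Without high smoke 1, 3 and 7 Zeb1 was at -0.31 against low smoke (limma adjusted p = 0.636).

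Ocln (chromosome 2, 30527715 to 30577219, minus strand) encodes occludin, a membrane protein of the tight junction strand. It ran from 1650 through a median of 1819 to 2040 in air, from 1826 through 1913 to 2038 in low smoke and from 1510 through 1919 to 2028 in high smoke. The groups overlapped throughout, and the difference between high smoke and air was -0.02 on the log2 scale with a 95% interval of -0.15 to 0.11, or a fold of 0.904 to 1.08. F11r (chromosome 13, 89826254 to 89850613, plus strand) encodes JAM-A, an adhesion molecule of the immunoglobulin family at the tight junction. It ran from 2312 through a median of 2629 to 3167 in air, from 2381 through 2485 to 2733 in low smoke and from 2405 through 2744 to 2857 in high smoke, a difference of 0.02 from air (95% interval -0.11 to 0.15). No high smoke value of F11r lay outside the air range, and under equal library totals its difference was -0.06, also not called.

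Of 29 other tight junction and polarity genes tested, 2 rose, 1 fell and 26 did not pass in high smoke against air, with a list median of 0.0014 on the log2 scale. Ybx3, which encodes ZONAB, a nucleic acid binding protein held at junctions by ZO-1, rose by 0.31 (limma adjusted p = 0.0266), Rab13, a small GTPase of junction assembly, rose by 0.48 (limma adjusted p = 0.0348), and Cxadr, an adhesion molecule that is also the receptor of coxsackieviruses and adenoviruses, fell by 0.41 (limma adjusted p = 0.0274). Ybx3 had 289 to 385 in air and 340 to 476 in high smoke, Rab13 54.6 to 105 and 74.6 to 127, and Cxadr 242 to 479 and 207 to 319, so all 3 overlapped between the groups. The calls were narrow: that of Ybx3 was lost without air 2 or 4 or high smoke 1, 3 or 5, that of Rab13 without air 1, 4, 6 or 7 or high smoke 2, 3, 5 or 7, and that of Cxadr without air 4 or 5 or high smoke 1 or 7. None of the 29 was called without high smoke 1, 3 and 7. Against low smoke, Ybx3 rose by 0.30 and Pard3, a polarity scaffold, fell by 0.38, calls lost when any 1 of 15 and any 1 of 9 libraries was left out. With any 1 library left out, their differences were 0.26 to 0.34 and -0.45 to -0.33.

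Scnn1a (chromosome 4, 157836912 to 157860050, plus strand) encodes the alpha subunit, without which ENaC barely conducts. It ran from 3665 through a median of 4427 to 5438 in air, from 3844 through 4813 to 6082 in low smoke and from 4839 through 5220 to 6302 in high smoke. The means had the order air, low smoke, high smoke, at 4583 ± 555 (SD, n = 7), 4988 ± 806 (SD, n = 8) and 5325 ± 491 (SD, n = 7). All 7 high smoke values lay above the air mean and 2 above every air value. The difference from air, 0.22 on the log2 scale (95% interval 0.02 to 0.42), did not pass after adjustment (limma adjusted p = 0.119), and no neighbours in the order passed the limma test. Scnn1b (chromosome 1, 191829555 to 191884299, plus strand) encodes the beta subunit and had 95.7 through a median of 117 to 164 in air, 109 through 134 to 144 in low smoke and 110 through 121 to 149 in high smoke. No high smoke value lay outside the air range, and the difference was 0.04 (95% interval -0.19 to 0.27), or -0.04 under equal library totals.

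The gamma subunit gene Scnn1g, which lies near Scnn1b on chromosome 1 (191704311 to 191738269, plus strand), rose. Its normalized count ran from 831 through a median of 987 to 1228 in air, from 1077 through 1208 to 1337 in low smoke and from 1019 through 1410 to 1996 in high smoke. High smoke 1, 3 and 7 had 1981, 1996 and 1813, and the other 4 had 1019 to 1410, which overlapped both low smoke and air. Scnn1g rose 1.49-fold in high smoke against air, a log2 difference of 0.57 (SE 0.12, limma adjusted p = 0.00329), and by 0.29 (limma adjusted p = 0.155) without those 3 libraries. Against low smoke it differed by 0.29 (limma adjusted p = 0.120), and low smoke differed from air by 0.28 (limma adjusted p = 0.728). Of 21 ENaC subunit and regulator genes tested, 2 rose, 1 fell and 18 did not pass against air, with a list median of 0.09, and none was called against low smoke. Wnk4, a kinase that regulates sodium and potassium transport, ran from 309 to 387 in air, 305 to 467 in low smoke and 391 to 597 in high smoke, so that all 7 high smoke values lay above every air value. It rose 1.31-fold (limma adjusted p = 0.00603) and, unlike Scnn1g, was still called without high smoke 1, 3 and 7, at 0.50 on the log2 scale (limma adjusted p = 0.0278). Nedd4l, the ubiquitin ligase that removes ENaC from the membrane, fell by 0.38 against air (limma adjusted p = 0.0152), from 661 to 971 in air to 444 to 757 in high smoke, with -0.19 (limma adjusted p = 0.357) without those 3 libraries. Sgk1, the kinase that restrains NEDD4L, differed from air by 0.22 (limma adjusted p = 0.123). None of 19 other alveolar ion and water transport genes was called in any comparison, with a median of -0.04 against air.

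Some markers of lung cell types were also called in high smoke. Of the 10 general epithelial markers, Krt7 and Krt8, keratins of simple epithelia, rose by 0.67 and 1.08 on the log2 scale against air, none fell and 8 did not pass, with a list median of 0.20. Alveolar type 1 markers had 2 of 8 higher, Ager and Hopx, and none lower, and alveolar type 2 markers had 3 of 10 higher and 1 lower. The summed type 2 marker value ran from 190582 to 240628 in air and from 232409 to 301439 in high smoke, while the list median was 0.05 on the log2 scale. Much of that sum is Sftpc, with a mean of 131767 in high smoke 1, 3 and 7 and 87717 in the other 4. Among markers of other cells, fibroblast markers had 2 of 7 higher, smooth muscle and pericyte markers 3 of 8 higher, lymphocyte markers 1 of 8 higher, endothelial markers 1 higher and 1 lower of 9, macrophage markers 1 of 7 lower, ciliated markers 1 higher and 1 lower of 6, and none was called among 5 club and secretory, 5 mesothelial, 4 neutrophil, 7 cardiac and 2 basal cell markers. Without high smoke 1, 3 and 7, of the lists with a call, 1 general epithelial and 1 type 2 marker were still called, and none of the others. The part of cell composition in the differences above was not tested.

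To set the 9 genes beside other epithelial genes, the mean log2 of the 10 general epithelial markers was taken from each gene's log2 value in the same library. The marker mean itself was higher in high smoke, at 10.06 against 9.77 in air and 9.90 in low smoke, so the median of all genes relative to it was -0.30 against air and -0.16 against low smoke. Of 27 comparisons, 7 passed an exact two-sided permutation test with adjustment over the 27, all of them lower and with an unadjusted p of at most 0.00995. By that p, 4 of the 9 genes were lower against air, where 25.9% of all genes were, and 3 of 9 against low smoke, where 8.7% were. Against air, Cdh1 relative to the markers was lower in high smoke by 0.71 on the log2 scale (6 of 7 libraries below every air library, exact permutation adjusted p = 0.0182), Tjp1 by 0.51 (6 of 7, exact permutation adjusted p = 0.0182), Ocln by 0.31 (5 of 7, exact permutation adjusted p = 0.0384) and F11r by 0.27 (6 of 7, exact permutation adjusted p = 0.0285). The values of Ocln and F11r lay close to that of the median gene, and before the marker mean was taken off they differed from air by -0.02 and 0.02. Against low smoke, Cdh1 was lower by 0.53 and Tjp1 by 0.36, and Scnn1b was lower by 0.24 (exact permutation adjusted p = 0.0384). Leaving out 1 library lost the Ocln call in 9 cases, the Scnn1b call in 10, and the F11r call and the Tjp1 call against low smoke without high smoke 1, 3 or 6 (exact permutation adjusted p up to 0.0787). Scnn1a differed by -0.07 and Cldn3 by 0.07 against air, neither of which passed. The measure depends on the markers chosen, and Krt7 and Krt8 among them rose. With Epcam alone in place of all 10 markers, 1 of the 27 passed, Cdh1 against air at -0.54 (exact permutation adjusted p = 0.0472). The part of Krt7 and Krt8 in that change was not tested. None of the 27 passed without high smoke 1, 3 and 7.

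Ratios of genes within a library do not change with its scaling, and 11 ratios were compared in each of the 3 comparisons. None of the 33 passed after adjustment. The smallest p belonged to F11r over Tjp1 in high smoke against low smoke, where the ratio ran from 0.401 to 0.552 in high smoke and from 0.345 to 0.427 in low smoke, a log2 difference of 0.28 with 6 of 7 libraries above every low smoke library (exact permutation p = 0.00311, adjusted p = 0.103). The ratio of Scnn1b to Scnn1g ran from 0.0988 through a median of 0.114 to 0.166 in air and from 0.0549 through 0.0851 to 0.147 in high smoke, with 5 of 7 high smoke libraries below every air library (log2 difference -0.53, exact permutation p = 0.0297, adjusted p = 0.277). High smoke 5, with the highest ratio of its group, 0.147, was the only single library whose removal changed this. Without high smoke 5 the ratio passed against air at -0.67 and against low smoke at -0.50 (exact permutation adjusted p = 0.0275 each). High smoke 1, 3 and 7 had the 3 lowest ratios of their group, 0.0595, 0.0549 and 0.0748, and without them the difference was -0.21 against air and -0.05 against low smoke (exact permutation adjusted p = 0.777 and 0.929). Without high smoke 6, which had the lowest F11r to Tjp1 ratio of its group, that ratio passed against low smoke at 0.32 (exact permutation adjusted p = 0.0220). Without high smoke 1, 3 and 7 it was at 0.25 (exact permutation adjusted p = 0.467). Leaving out the value that runs most against a difference widens it, so the passes without high smoke 5 or 6 add no support.

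Across the 22 libraries, with group means removed, the 9 genes did not vary as a block. Pearson r over the 36 pairs ran from -0.55 to 0.63 with a median of 0.0066, 20 pairs lay above 0, and none passed a permutation test within groups after adjustment. The highest r was between Cldn3 and Scnn1b, at 0.63 (Spearman rho 0.61, permutation p = 0.00243 and 0.00417, adjusted p = 0.0684 and 0.0751), and 0.59 without the 2 libraries farthest from the median of Cldn3. Without high smoke 1, 3 and 7 that pair had r = 0.73 over 19 libraries (rho 0.72, permutation adjusted p = 0.0115 and 0.0241). Ocln and Scnn1b had the lowest r, -0.55 (rho -0.52, permutation p = 0.00802 and 0.0220, adjusted p = 0.0962 and 0.264), and -0.59 without the 2 farthest. It was -0.63 without high smoke 1, 3 and 7 (rho -0.65, permutation adjusted p = 0.0364 and 0.0718). Those libraries were chosen from the same values, so the passes without them add no support. Tjp1 and Cdh1, the genes called lower, had r = 0.25 (rho 0.24, permutation p = 0.284 and 0.302, adjusted p = 0.723 and 0.724) and 0.42 without the 2 farthest. Without high smoke 1, 3 and 7 their r was -0.05 (rho 0.03, permutation adjusted p = 0.935 and 0.950), so the positive r was not seen in the other 19 libraries.

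The genes whose pattern was most like that of each of the 9 were sought by Pearson r over the same 22 values among 10398 genes with a mean of at least 50. These r are given as a description, since they are the highest of many and the libraries share depth and the split of the high smoke group. Cdh1 followed Msn, which encodes the actin linker moesin, at 0.90, Pan2, a subunit of a deadenylase, at 0.87 and Tubgcp2, of the gamma-tubulin complex, at 0.87. Tjp1 followed Trappc8 at 0.80, Ubr3 at 0.79 and Pan3, the partner of PAN2, at 0.79. For the other 7 the highest r was 0.72 to 0.80: Stard10 for Cldn3, Znhit6 for Cldn4, Mplkip for Cldn7, Ccdc125 for Ocln, Cdc42se1 for F11r, Dcaf6 for Scnn1a and Hibch for Scnn1b. None of the 9 was among the 3 closest genes of another.

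The differences between high smoke and air followed the length of the gene over all genes. In 5 equal bins of gene span, the distance from the first to the last base of the gene in the deposited coordinates, the median log2 difference was 0.08 in the shortest bin, then 0.04, 0.0041 and -0.04, and -0.07 in the longest, and the share of genes called lower was 5.13% in the shortest and 10.5% in the longest. Cldn3, Cldn4 and Cldn7 span 1.47, 1.80 and 2.20 kb and lie in the shortest bin, Scnn1a and F11r span 23.1 and 24.4 kb, and Ocln and Scnn1b span 49.5 and 54.7 kb. Cdh1 and Tjp1, which fell, are the longest of the 9, at 69.9 and 81.0 kb, and lie in the longest bin. Of other genes called lower, Afdn, Ctnna1 and Nedd4l, at 87.0, 132 and 327 kb, also lie in the longest bin. Ctnnd1 and Zeb1, at 50.9 and 56.5 kb, do not. These spans are those of the deposited rn6 coordinates, and the RefSeq gene of Tjp1 in GRCr8 is longer. With the trend along span removed, an alternative added after the data were seen, Cdh1 was at -0.36 (limma adjusted p = 0.0241) and Tjp1 at -0.15 (limma adjusted p = 0.0567), Afdn at -0.46 (limma adjusted p = 0.00459) and Scnn1g at 0.60 (limma adjusted p = 0.00284). Ctnna1, at -0.27 (limma adjusted p = 0.0658), Rab13, at 0.39 (limma adjusted p = 0.0743), Snai1, at 0.43 (limma adjusted p = 0.0692), and Esrp2, at 0.10 (limma adjusted p = 0.216), were no longer called.

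**Figure D4:**
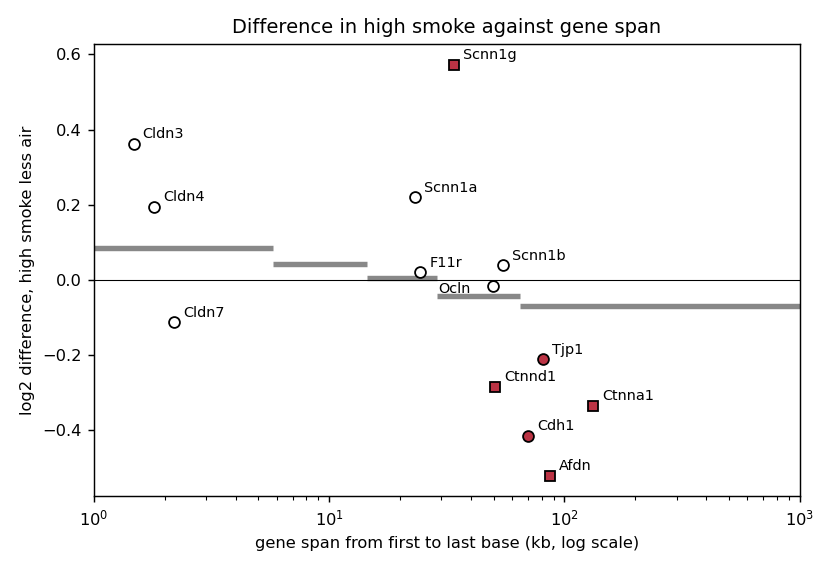
Log2 difference between high smoke and air (vertical axis) against gene span in kb (horizontal axis, log scale) for the 9 genes (circles) and 4 others (squares). Filled points are called by limma, and grey bars are the medians of all genes by bin of span, from 0.08 to -0.07. Cdh1 and Tjp1 lie at the right, below the bar of the longest bin.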

How the data were processed

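Per the submitters' processing notes, reads were aligned with STAR 2.7.3a to build rn6 and counted and normalized in Partek with DESeq2. The deposited values have the unit signal: normalized gene counts per library. Dividing by what 1 read is worth left 80.6% to 82.8% of values under 200 reads within 0.02 of a whole number, so reads were not recovered and no count model was run, and intervals for reads cover counting error only. From the deposited values, log2(value + 1) was fitted with limma 3.58.1 in R 4.3.3 (3 groups in 1 model, trend on, robust off) over genes with a mean of at least 10, two-sided, with Benjamini-Hochberg adjustment. The pseudocount understates changes of genes with low values. Ratios, levels relative to markers and correlations were tested by permutation (exact, or 100000 draws for correlations) in Python 3.11.15 with scipy 1.17.1. The model was also run on simulated data, drawn gene by gene with the same spread in every group. Such data do not carry the split of the high smoke group, so that run does not bear on it. The 9 genes, the gene lists and the naming rule (the 9; Scnn1g, Cldn5, Cldn18, Grhl2, Zeb1, Sgk1, Nedd4l; up to 4 called genes per list) were chosen with earlier results of these data known. Outside that rule, Ctnnb1 and the markers named were chosen after their values were seen. A few listed genes, among them Cldn14, Cldn16, Pkp2, Foxj1 and Pecam1, were not analysed here. Alternatives were other pseudocounts, level filters, scalings, weights, a rank-sum test, an epithelial covariate, left-out libraries and, added after seeing the data, removal of a trend along gene span. The high smoke libraries left out together were likewise chosen after the data were seen, by their scores on the first principal component. The share of all genes lower relative to the markers was also computed after the data were seen.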

Additional observations from a re-analysis of the deposited data

Results flagged for a closer look

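Scnn1b in low smoke 4 had a normalized count of 108.877, the lowest of its 8 libraries, at a distance from the others that Dixon's test at 95% marks, while the remaining low smoke libraries lay between 128 and 144. It was the only value marked among 27 sets of a gene and a group, and chance marks about 1 set in 20. The value lies within the air range of 95.7 to 164 and the high smoke range of 110 to 149 began just above it. Its cause was not tested.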

How the results depend on the processing

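The calls of Cdh1 and Tjp1 kept their direction under every alternative run, but not their side of the threshold. In high smoke against air 2 genes were lower. The count was 1 with only the groups compared in the fit, 1 with the trend along gene span removed, 0 with the epithelial covariate, 0 without high smoke 1, 3 and 7, and 0 by the rank-sum test, where Cdh1 had an adjusted p = 0.0721 and Tjp1 0.0566 (exact test). It was 1 to 2 when 1 library was left out. Of all 14414 genes tested in this comparison, the rank-sum test called 746. With the span trend removed, limma called 1215 genes higher and 1001 lower. Without high smoke 1, 3 and 7 the other gene lists also lost most of their calls, so that loss is not particular to the 9 genes. In high smoke against low smoke 2 genes were lower. The count was 1 with only the groups compared, with array weights or with no level filter, and 0 with the covariate, with the span trend removed, by the rank-sum test or without high smoke 1, 3 and 7. It was 0 to 2 when 1 library was left out. Of all genes tested in this comparison, the rank-sum test called 183. With the span trend removed, limma called 393 genes higher and 302 lower. The cause of these losses was not tested. No share of all genes called is given here for the fits with the covariate, array weights, no level filter or only the groups compared. The same holds without high smoke 1, 3 and 7. The counts of the 9 genes in those fits are therefore description only. Other pseudocounts, scalings, a mean of at least 50 and robust variance left both counts at 2. Of the ratios 0 passed, and 0 to 2 when 1 library was left out. Of the relative levels 7 passed, 1 with Epcam alone, 0 without high smoke 1, 3 and 7, and 3 to 9 when 1 library was left out, the lowest without high smoke 1, 3 or 6. Of the correlations 0 passed, 1 under equal totals and 2 without high smoke 1, 3 and 7. Under equal totals 33.2% of the genes called in high smoke against air were higher, against 56.6% as deposited. Depth limits Cldn3, Cldn4, Cldn7 and Scnn1b most. No paired analysis was possible because replicate numbers follow the order of the labels and tie no rats together across groups.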
